A study of Mus musculus with 8 samples.

Results

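The genes described here are 8 enzymes that remove R-loops or relax DNA: the topoisomerases Top1 and Top2b, the ribonuclease genes Rnaseh1, Rnaseh2a and Rnaseh2b, and the helicases Aqr, Dhx9 and Ddx5. They were chosen by name, for what their products do, with earlier results of these data known. All 8 were among the 11911 genes listed in the count table, and all 8 passed the filter on low counts that left 11317 genes for testing. The libraries came from naïve CD4+ T cells of mouse spleen, cultured for 36 hours with anti-CD3, anti-CD28, TGF-β, anti-IFNγ and anti-IL-4, conditions that polarize them to induced regulatory T cells (iTregs). The 4 labelled WT1 to WT4 were from Foxp3YFP-Cre mice (control), and the 4 labelled KO1 to KO4 were from Tdrd3fl/fl/Foxp3YFP-Cre mice (knockout). Both groups carried the Foxp3YFP-Cre allele on a C57BL/6J background, so the floxed Tdrd3 alleles were the stated difference between them. Cre was made from the Foxp3 locus, so the deletion can occur only in cells that have transcribed Foxp3, and no enrichment for cells expressing YFP is described ahead of RNA extraction. The labels give no age or sex for these mice.

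An R-loop is a stretch in which new RNA stays paired with its DNA template and the other DNA strand is left single. R-loops form readily behind RNA polymerase, where the DNA is underwound. Topoisomerases remove that torsion, RNase H enzymes cut the RNA of the hybrid, and helicases unwind it. TDRD3, a Tudor domain protein that reads methylated arginines, is the scaffold of TOP3B, a topoisomerase of both DNA and RNA, and the TDRD3-TOP3B complex is known to limit R-loops. The comparison below asks whether the transcripts of the other enzymes that do this work differed when Tdrd3 was targeted.

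No difference passed the test after adjustment. None (0) of the 8 genes passed an adjusted p of 0.05 in edgeR's quasi-likelihood test, where 0.265% of the 11317 tested genes did (30 genes), and DESeq2 and limma-voom also called 0 of the 8. One of the 8, Rnaseh2b, had an unadjusted P under 0.05, beside 9.3% of all tested genes. Rnaseh2b was also the 1 gene of the 8 whose control and knockout libraries did not overlap, beside 4.89% of all tested genes. For 6 of the 8 the whole 95% interval of the fold change lay within 1.2-fold in either direction, beside 59.1% of all tested genes. The exceptions were Rnaseh1 and Rnaseh2b. Intervals narrow as counts rise, and the 8 were not compared with genes of like counts. Fitted differences were above 0 for 5 genes and below 0 for 3, with a median log2 difference of 0.010, beside 0.0013 over all tested genes.

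The libraries held 13258239 to 16001676 estimated counts over the listed genes, and values are given below as counts per 1000000 counts (CPM) after trimmed mean of M-values (TMM) scaling, with factors of 0.993 to 1.00. Tdrd3 itself, on chromosome 14, was at 18.8, 15.1, 9.95 and 17.7 CPM in WT1 to WT4 and at 13.7, 10.7, 12.9 and 11.1 CPM in KO1 to KO4. The library labelled WT3 was below every knockout library. The fitted log2 difference was −0.35 (edgeR adjusted p = 0.496), and without the library labelled WT3 it was −0.51 (edgeR adjusted p = 0.115). It ranged from −0.51 to −0.23 with 1 library left out, with the smallest size without WT1 (edgeR adjusted p = 0.8292). The counts are for whole genes and do not show the floxed exons apart from the rest. In RNA from bulk cultures, loss of Tdrd3 in a share of the cells and a partial fall in every cell cannot be told apart. Top3b, the partner of Tdrd3, was at 50.8 ± 3.19 CPM in control and 51.6 ± 2.31 CPM in knockout libraries (SD, n = 4 each), a log2 difference of 0.021 with a 95% interval of −0.11 to 0.15. All 6 CD4 T cell markers checked were listed, and their summed level was 1693 to 1795 CPM in control and 1662 to 1742 CPM in knockout libraries. The 2 CD8 T cell markers summed to 7.72 to 21.8 CPM in control libraries, with the highest value in the library labelled WT3, and to 6.68 to 8.35 CPM in knockout libraries. Markers of other blood cells had few counts. The B cell markers Cd79a, Cd79b and Pax5 summed to 1.92 to 3.71 CPM in control libraries, again with the highest value in the library labelled WT3, and to 1.09 to 2.93 CPM in knockout libraries. For NK cells, Ncr1 and Klrb1c were not listed, and the other 2 of 4 summed to 2.67 to 3.33 CPM in control and 2.38 to 4.48 CPM in knockout libraries. Of 6 myeloid markers only Lyz2 was listed, at 0 in control and 0 to 1.22 CPM in knockout libraries, and 0 of 3 erythroid markers were. Foxp3 was at 109.9 ± 12.5 CPM in control and 88.4 ± 13.3 CPM in knockout libraries (SD, n = 4 each; log2 difference −0.31, edgeR adjusted p = 0.152). On the first principal component of the 500 most variable genes, which held 29.9% of their variance, KO1 (9.61) and KO4 (10.6) stood apart from the other 6 libraries (−6.78 to 1.91).

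Topoisomerases were taken first. Top1 (ENSMUSG00000070544, GRCm39 chr2:160487808-160564684, plus strand) encodes topoisomerase I, which relaxes DNA by nicking 1 strand ahead of and behind RNA polymerase. Its level was 193, 189, 216 and 219.7 CPM in WT1 to WT4 and 218, 215, 212 and 219 CPM in KO1 to KO4. The control libraries fell into a lower pair, WT1 and WT2, and a higher pair, WT3 and WT4, and all knockout libraries lay beside the higher pair. The coefficient of variation was 7.77% among control libraries and 1.46% among knockout libraries. The means were 204 ± 15.9 and 216 ± 3.16 CPM (SD, n = 4 each). The log2 difference was 0.08 (SE 0.0489, 95% interval −0.024 to 0.18), and it did not pass the test (edgeR adjusted p = 0.703). An exact permutation test over the 70 arrangements of the libraries gave p = 0.343 (two-sided; the smallest p this design allows is 0.0286).

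Top2b (ENSMUSG00000017485, chr14:6034301-6104584, minus strand) encodes topoisomerase IIβ, which passes 1 double helix through another and, unlike topoisomerase IIα, is also made by cells that do not divide. It was the steadiest of the 8 genes. The level was 345, 332, 346 and 347 CPM in WT1 to WT4 and 345, 351, 334 and 346 CPM in KO1 to KO4. The highest library was 1.06 times the lowest, and the low libraries, WT2 and KO3, came from different genotypes. The means were 343 ± 6.95 CPM in control and 344 ± 6.95 CPM in knockout libraries (SD, n = 4 each). The log2 difference of 0.0066 had a 95% interval of −0.070 to 0.083, that is, from 4.75% lower (−4.75%) to 5.95% higher in knockout libraries (edgeR adjusted p = 0.972; exact permutation p = 0.629).

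None of the 4 other topoisomerase genes passed an unadjusted P of 0.05 either. Top2a, the proliferation-linked topoisomerase IIα, was at 1148 ± 14.3 CPM in control and 1107 ± 32.3 CPM in knockout libraries (SD, n = 4 each; log2 difference −0.053, edgeR adjusted p = 0.718). Top3a and the mitochondrial Top1mt had the largest differences of the list, −0.12 (95% interval −0.27 to 0.024) and 0.11 (−0.083 to 0.30). Both intervals reach beyond 1.2-fold, so they do not show these genes to be as steady as Top2b. Over all 6 topoisomerases the median log2 difference was 0.014. The enzymes that clear topoisomerases trapped on DNA were also listed in full: Sprtn, the protease, had a log2 difference of −0.10, and the phosphodiesterase Tdp1 one of 0.057. None of these 3 genes passed an unadjusted P of 0.05.

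**Figure D1:**
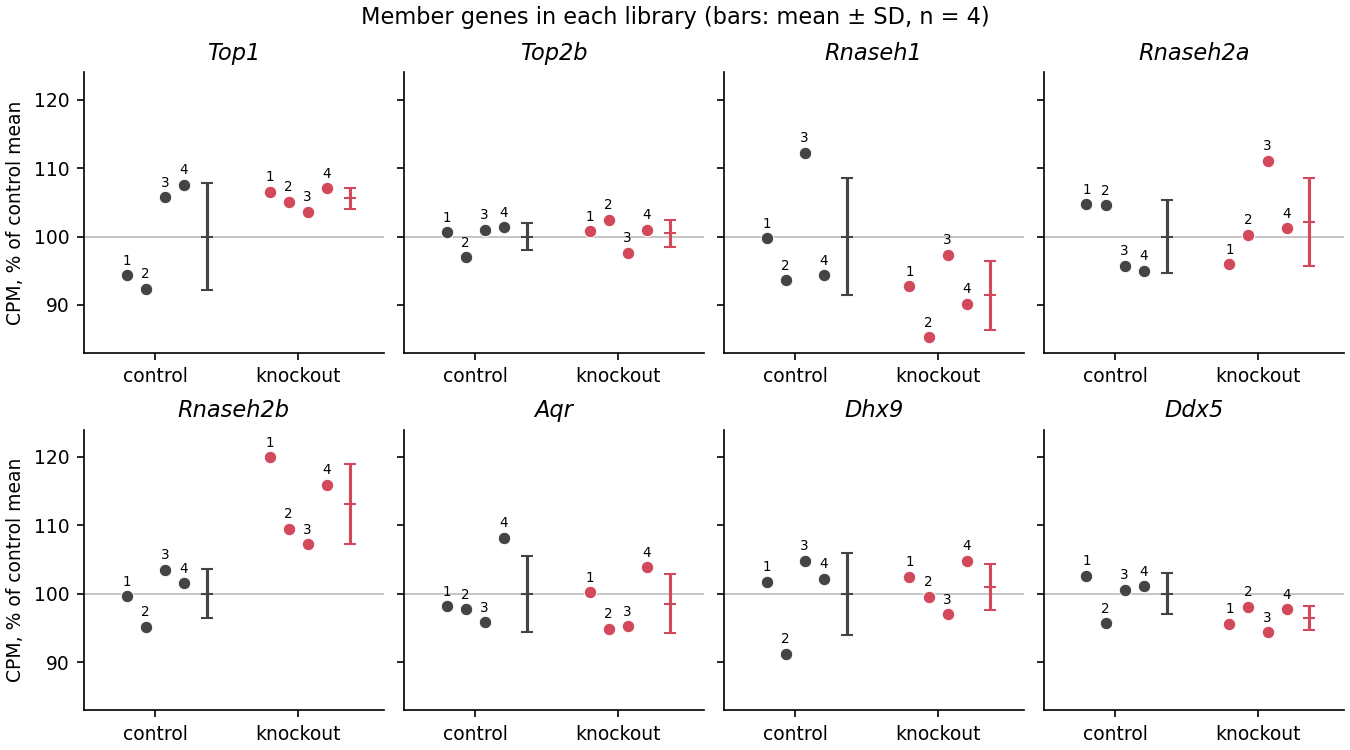
Level of each of the 8 genes in every library, as CPM in percent of the gene's mean over the 4 control libraries (grey line at 100%). Points are libraries with their replicate number, and bars are the mean ± SD (n = 4). In the Rnaseh2b panel all knockout libraries (45.2 to 50.6 CPM) lie above all control libraries (40.2 to 43.7 CPM), whereas the groups overlap in the other 7 panels.

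RNase H enzymes cut the RNA strand of an RNA-DNA hybrid. RNase H1 works as a single protein, whereas RNase H2 is a trimer of the catalytic subunit RNASEH2A with RNASEH2B and RNASEH2C, and RNase H2 also removes single ribonucleotides built into DNA. Mutations in the RNase H2 genes are known to cause an autoinflammatory disease in people.

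Rnaseh2b (ENSMUSG00000021932, chr14:62530038-62610441, plus strand) gave the clearest separation of the 8. Its level was 42.04, 40.2, 43.7 and 42.8 CPM in WT1 to WT4 and 50.6, 46.2, 45.2 and 48.9 CPM in KO1 to KO4. Every knockout library was above every control library, with 1.57 CPM between the nearest of them, and KO1 and KO4 were the highest. The means were 42.2 ± 1.501 and 47.7 ± 2.46 CPM (SD, n = 4 each), a fitted difference of 13.2% with a 95% interval of 3.50% to 23.7%. On the log2 scale that was 0.18 (SE 0.0615, 95% interval 0.050 to 0.31). The difference passed the unadjusted test (edgeR P = 0.00918) but not the adjustment over all tested genes (adjusted p = 0.303), and Rnaseh2b ranked 343 of the 11317 tested genes by P. The exact permutation p was 0.0286, the smallest this design can give. Without the library labelled WT3 the log2 difference was 0.20 (edgeR adjusted p = 0.264). Without KO1 and KO4 it was 0.12, and its unadjusted P was then above 0.05 (edgeR adjusted p = 1.00). KO1 and KO4 were also the libraries with the lowest Foxp3, at 77.2 and 78.1 CPM beside 93.2 to 122 CPM in the other 6. The part of what sets these libraries apart in the Rnaseh2b values was not tested.

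The other subunits of RNase H2 did not share that separation of the groups. Rnaseh2a (ENSMUSG00000052926, chr8:85683239-85696396, minus strand), the catalytic subunit, was at 59.1, 59.0, 54.0 and 53.6 CPM in WT1 to WT4 and at 54.2, 56.6, 62.7 and 57.1 CPM in KO1 to KO4. The groups overlapped, with the highest library KO3 and the lowest WT4. WT1 and WT2 were the higher control libraries here, whereas for Top1 they were the lower. The means were 56.4 ± 3.02 and 57.6 ± 3.60 CPM (SD, n = 4 each; log2 difference 0.03, 95% interval −0.099 to 0.16, edgeR adjusted p = 0.937, exact permutation p = 0.6). Rnaseh2c, the remaining subunit, was at 44.1 ± 3.85 CPM in control and 45.0 ± 3.56 CPM in knockout libraries (SD, n = 4 each). Its log2 difference was 0.03 (95% interval −0.13 to 0.18). The intervals of Rnaseh2a and Rnaseh2c both overlap that of Rnaseh2b, so they do not show the subunits to differ.

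Within each library the ratio of Rnaseh2a to Rnaseh2b CPM does not depend on depth. It was 1.41, 1.47, 1.24 and 1.25 in WT1 to WT4 and 1.07, 1.23, 1.39 and 1.17 in KO1 to KO4. KO1 had the lowest ratio, but KO3 lay above WT3 and WT4, so the groups overlapped. The mean ratio was 1.34 ± 0.115 in control and 1.21 ± 0.132 in knockout libraries (SD, n = 4 each; exact permutation p = 0.143, adjusted over the 4 ratios tested p = 0.286). The log2 difference of the ratio was −0.15, and it was −0.090 without KO1 and −0.038 without KO1 and KO4.

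Rnaseh1 (ENSMUSG00000020630, chr12:28699601-28709588, plus strand), whose product acts in the nucleus and in mitochondria, had the lowest counts of the 8, at 276 to 346 per library. Counting error alone is 5.38% to 6.02% of a library's value at that depth. The level was 21.6, 20.2, 24.3 and 20.4 CPM in WT1 to WT4 and 20.04, 18.4, 21.04 and 19.5 CPM in KO1 to KO4. The library labelled WT3 was the highest and KO2 the lowest, and the groups overlapped. The means were 21.6 ± 1.86 and 19.7 ± 1.09 CPM (SD, n = 4 each). The log2 difference was −0.13 (SE 0.0877, 95% interval −0.32 to 0.052; edgeR adjusted p = 0.734; exact permutation p = 0.114), and −0.072 without the library labelled WT3. The coefficient of variation was 8.61% among control and 5.52% among knockout libraries.

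**Figure D2:**
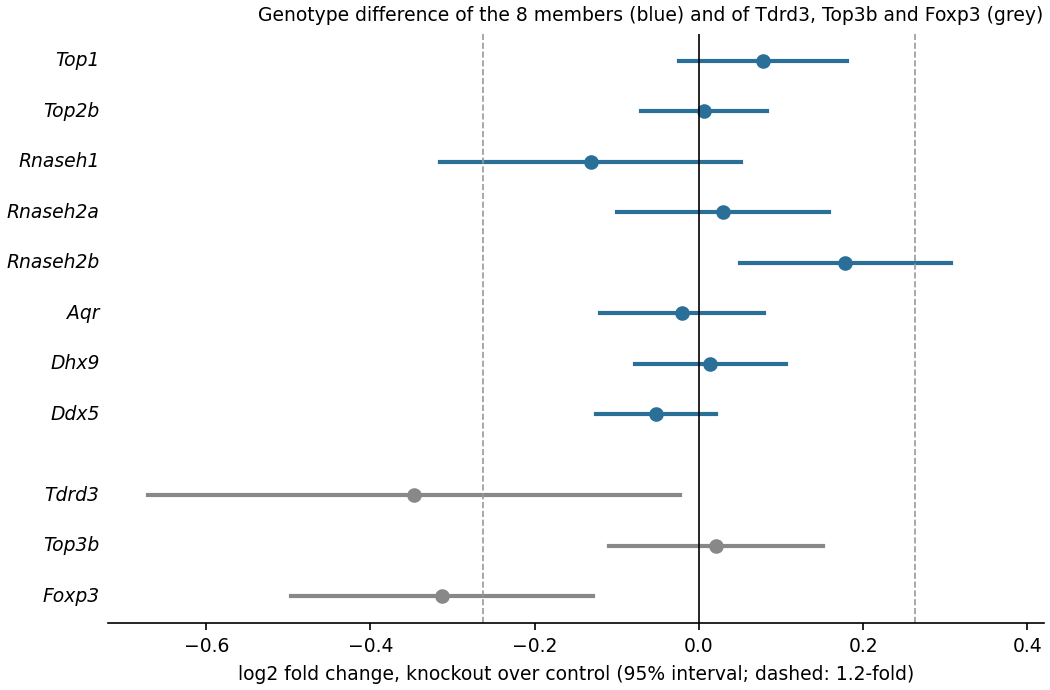
Fitted log2 fold change, knockout over control, with its 95% interval, for the 8 genes (blue) and for Tdrd3, Top3b and Foxp3 (grey), from edgeR with 4 libraries a group. The dashed lines mark 1.2-fold in either direction. Of the 8 intervals, 7 hold 0, the interval of Rnaseh2b (0.050 to 0.31) does not, and those of Rnaseh1 and Rnaseh2b cross a dashed line.

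The helicases were next. DDX5 and DHX9 unwind RNA-DNA hybrids and also act in splicing and transcription, and AQR is the RNA helicase that joins the spliceosome at introns. DDX5 belongs to the DEAD-box family and DHX9 to the DEAH/RHA family, named after residues of the motif that binds and hydrolyses ATP. The coding sequence around that motif is shown for Ddx5, for its close paralogue Ddx17 and for Dhx9, to compare the bases there. Each is 30 bases of the canonical GENCODE transcript on GRCm39, 5′ to 3′, with the 4 codons of the motif in capitals.
Ddx5: cttgtccttGATGAAGCTGATaggatgctt
Ddx17: cttgtgttgGATGAGGCTGACcggatgctt
Dhx9: gttattgtgGATGAAATTCATgaaagagat
The capitals read Asp-Glu-Ala-Asp from residue 248 of 615 in Ddx5 and from residue 246 of 650 in Ddx17, and Asp-Glu-Ile-His from residue 514 of 1384 in Dhx9. Ddx5 and Ddx17 had 24 of the 30 bases in common (80.0%). No run of 50 bases of the Ddx17 transcript was found in a transcript of another gene, Ddx5 included.

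Ddx5 (ENSMUSG00000020719, chr11:106671181-106680011, minus strand) was at 1154, 1076, 1131 and 1137 CPM in WT1 to WT4 and at 1075, 1103, 1062 and 1099.5 CPM in KO1 to KO4. WT2 lay among the knockout libraries, and the other 3 control libraries were above all of them. The means were 1125 ± 33.7 and 1085 ± 19.9 CPM (SD, n = 4 each). The log2 difference was −0.052 (SE 0.0349, 95% interval −0.12 to 0.021; edgeR adjusted p = 0.739; exact permutation p = 0.0857). Ddx17 was at 525 ± 29.6 CPM in control and 526 ± 9.22 CPM in knockout libraries (SD, n = 4 each; edgeR adjusted p = 0.994). The ratio of Ddx5 to Ddx17 CPM was 2.12, 1.96, 2.33 and 2.18 in WT1 to WT4 and 2.07, 2.09, 1.97 and 2.12 in KO1 to KO4. The groups overlapped (exact permutation p = 0.4).

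Dhx9 (ENSMUSG00000042699, chr1:153331504-153363406, minus strand) was at 495, 444, 509.8 and 497 CPM in WT1 to WT4 and at 498, 484, 472 and 509.8 CPM in KO1 to KO4. WT2 was the lowest library, KO2 and KO3 lay below the other 3 control libraries, and the highest libraries, WT3 and KO4, came from different genotypes. The means were 486 ± 29.1 and 491 ± 16.6 CPM (SD, n = 4 each; log2 difference 0.014, 95% interval −0.078 to 0.11, edgeR adjusted p = 0.955, exact permutation p = 0.743).

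Aqr (ENSMUSG00000040383, chr2:113931651-114017505, minus strand) was at 163, 162, 159 and 179 CPM in WT1 to WT4 and at 166, 157, 158 and 172 CPM in KO1 to KO4. Replicate 4 was the highest library of each group. The means were 166 ± 9.20 and 163 ± 7.13 CPM (SD, n = 4 each; log2 difference −0.021, 95% interval −0.12 to 0.079, edgeR adjusted p = 0.939, exact permutation p = 0.686). The proteins that AQR enters the spliceosome with, the intron-binding complex of Xab2, Isy1, Ppie and Zfp830, had log2 differences up to 0.075 (Ppie) and 0.058 (Zfp830). No gene of that complex passed an unadjusted P of 0.05.

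Levels of different genes can be compared once divided by transcript length. On that scale, CPM per kilobase of the canonical transcript, the 8 genes covered a wide range. Ddx5 came first, with means of 316 in control and 305 in knockout libraries, at percentile 99.0 of 11316 tested genes with a length. Dhx9 followed at 105 and 106 (percentile 95.1). Top1 (37.3 and 39.4), Top2b (33.1 and 33.2), Aqr (30.0 and 29.5) and Rnaseh2b (27.8 and 31.5) lay close together, at percentiles 77.0 to 82.3. The library ranges of Top2b and Aqr overlapped, as did those of Aqr and Rnaseh2b, so these neighbours in the order were not apart beyond their spread. Rnaseh2a (18.7 and 19.1) and Rnaseh1 (14.9 and 13.6) were the lowest, at percentiles 65.5 and 57.3, with ranges that met no neighbour's. Depth of measurement follows counts rather than this scale. Ddx5 had 14128 to 17603 counts per library and Dhx9 6101 to 7729, against 276 to 903 for the RNase H genes among the 8. Top1, Top2b and Aqr, at 2100 to 5600, also had more counts than those.

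**Figure D3:**
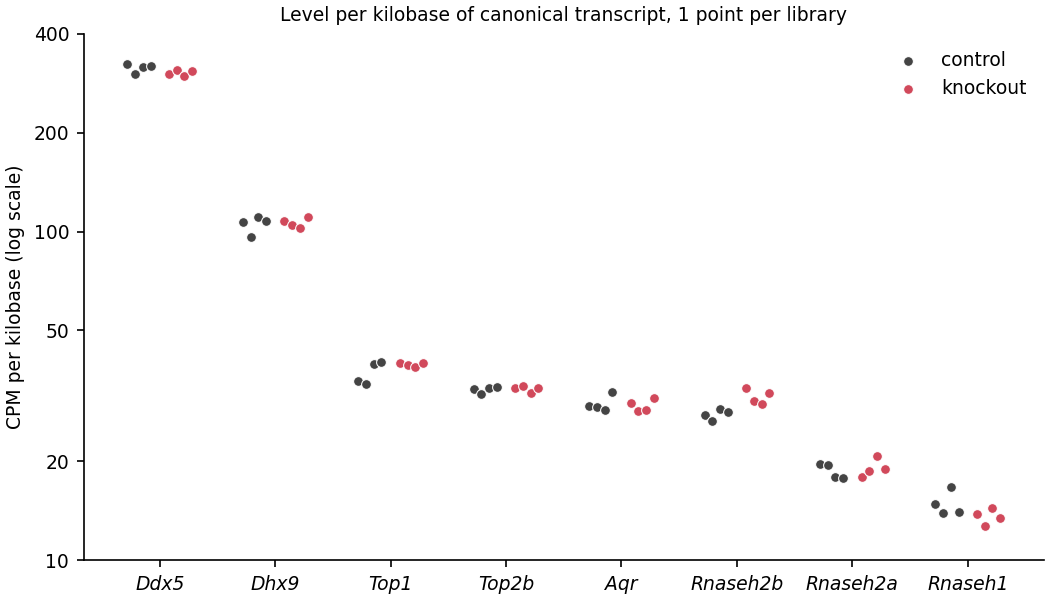
Level of each gene per kilobase of its canonical transcript, in CPM per kilobase on a log axis, with 1 point per library (grey, control; red, knockout). Ddx5 (298 to 324) and Dhx9 (96.2 to 110) lie above the rest, and Rnaseh1 (12.7 to 16.7) is lowest in both genotypes.

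Some reads of these genes cannot be assigned with certainty. Whether the counting used strand is not given in the sources used here. No 50-base run of the Rnaseh1, Rnaseh2b or Dhx9 transcript was shared with a transcript of another gene. The share was 1.15% for Aqr (with Gm74991) and 16.7% for Top1 (with Gm75269), and for Top2b 2267 of 10307 runs were shared (with Rarb), all genes that run antisense to them. It was 22.7% for Ddx5 (with Gm12183) and 23.5% for Rnaseh2a, mostly with the antisense gene Prdx2 and with Gm49661. Without strand, reads from the overlaps with an antisense gene cannot be told apart. Of these partners, Prdx2 was the 1 with a row in the table, at a mean of 194 CPM and a log2 difference of 0.046 (edgeR adjusted p = 0.821). Exons of Rnaseh2b overlap those of Dleu7 on the other strand, which was at a mean of 1.28 CPM.

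Top2b and Rnaseh2b lie on chromosome 14 with Tdrd3, at 81.5 Mb and 25.0 Mb from it. Within 2 Mb of Rnaseh2b, 18 other genes were tested. None of them (0) had an unadjusted P under 0.05 in edgeR, and their median log2 difference was 0.0068, with a range of −0.15 to 0.44. Within 2 Mb of Top2b, 2 of 8 tested genes had an unadjusted P under 0.05, Slc4a7 (log2 difference 0.17) and Nr1d2 (−0.24), both named after their values were seen. Neither passed the adjustment. Over all 386 tested genes of chromosome 14 the share with an unadjusted P under 0.05 was 9.59%, beside 9.3% of all tested genes. Of these 386 genes, 4 passed an adjusted p of 0.05 in edgeR, beside 30 of all 11317 tested genes (0.265%). That share was larger on chromosome 14 than over all tested genes. Over all 386 genes of the chromosome the log2 differences ranged from −6.24 to 1.34.

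The wider set of genes that prevent, unwind or repair R-loops gave the same kind of values. The 57 genes of 8 lists, without the 8 genes above, were all tested. None (0) passed an adjusted p of 0.05 in edgeR, DESeq2 or limma-voom, and 2 had an unadjusted P under 0.05, both lower in knockout libraries, beside 9.3% of all tested genes. The first was Ddx39a, a DEAD-box helicase of mRNA export, at 269 ± 8.50 CPM in control and 252 ± 4.17 CPM in knockout libraries (SD, n = 4 each; log2 difference −0.093, edgeR adjusted p = 0.456). Its groups did not overlap, as for 4.89% of all tested genes. The other was Samhd1, a dNTPase that also acts at stalled replication forks, at 258 ± 12.1 and 240 ± 14.7 CPM (SD, n = 4 each; log2 difference −0.10, edgeR adjusted p = 0.502), with groups that overlapped. The median log2 difference of the 57 was 0.0034, and for 54 of them the 95% interval lay within 1.2-fold, beside 59.1% of all tested genes. Intervals narrow as counts rise, and the genes compared were not matched for counts.

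By role, the 20 R-loop helicases had a median log2 difference of −0.017, with a range of −0.093 (Ddx39a) to 0.067. All 20 intervals lay within 1.2-fold. The 10 genes that package mRNA as it is made, subunits of the THO complex with Alyref and the splicing factors Srsf1, Srsf2 and Srsf3, had a median of −0.0094, and the largest differences were −0.054 (Thoc2) and −0.044 (Thoc6). Packaging keeps the new RNA from pairing back with DNA. For the 6 genes of transcription termination and the exosome the median was 0.027, with 0.057 for the cleavage factor Pcf11 and 0.044 for Smn1. For the 12 DNA repair genes tied to R-loops it was −0.026, with a range of −0.10 (Samhd1) to 0.15.

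**Figure D4:**
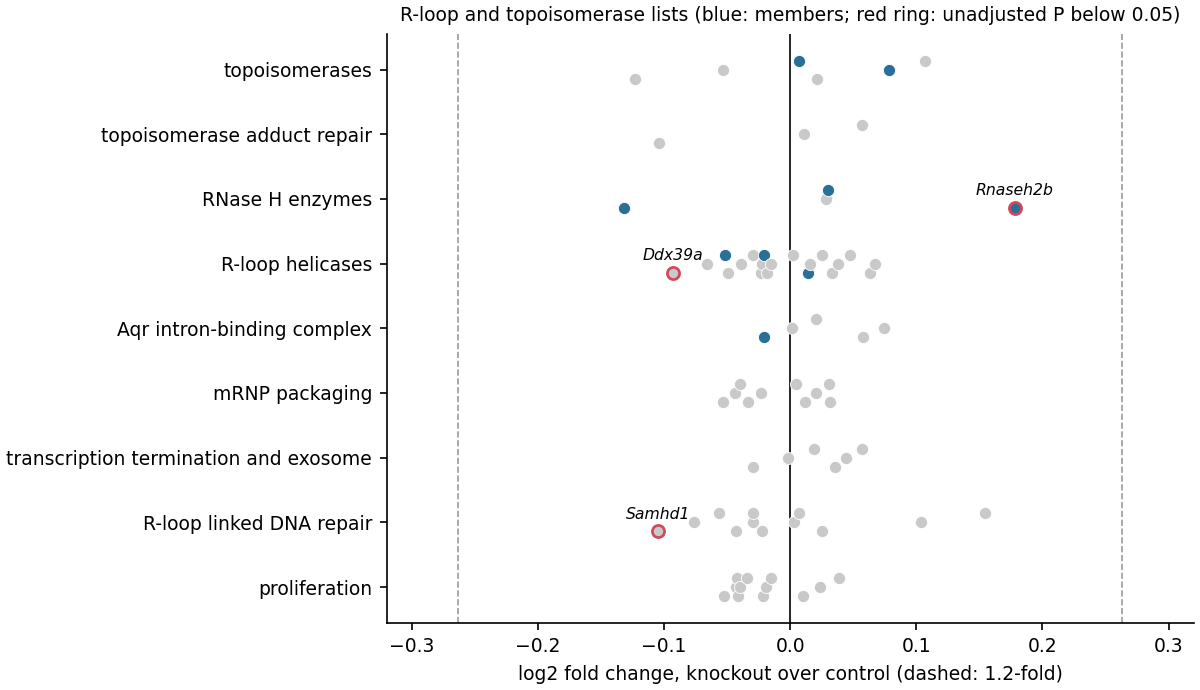
Fitted log2 fold change, knockout over control, of every gene in 8 lists of R-loop and topoisomerase genes and in a proliferation list, with 1 point per gene. Blue points are the 8 genes described here, a red ring marks an unadjusted P under 0.05, and dashed lines mark 1.2-fold. Every point lies inside the dashed lines, between −0.13 and 0.18, and 3 carry a ring (Rnaseh2b, Ddx39a and Samhd1).

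Many of these enzymes are made in larger amounts by dividing cells, so proliferation genes were read beside them. None of 12 (0) had an unadjusted P under 0.05 in edgeR, their median log2 difference was −0.028, and the largest differences were those of Ccna2 (−0.052) and Pcna (−0.043). The ratio of Top2a, made by dividing cells, to Top2b was 3.37, 3.47, 3.26 and 3.31 in WT1 to WT4 and 3.14, 3.29, 3.25 and 3.19 in KO1 to KO4. Knockout ratios were mostly lower, but KO2 lay above WT3. The means were 3.35 ± 0.0920 and 3.22 ± 0.0636 (SD, n = 4 each; exact permutation p = 0.0571, adjusted over the 4 ratios p = 0.229). The ratio of Top1 to Top2b was 0.559, 0.568, 0.624 and 0.633 in WT1 to WT4 and 0.630, 0.612, 0.633 and 0.632 in KO1 to KO4, with the knockout libraries beside WT3 and WT4 as for Top1 itself (exact permutation p = 0.229).

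**Figure D5:**
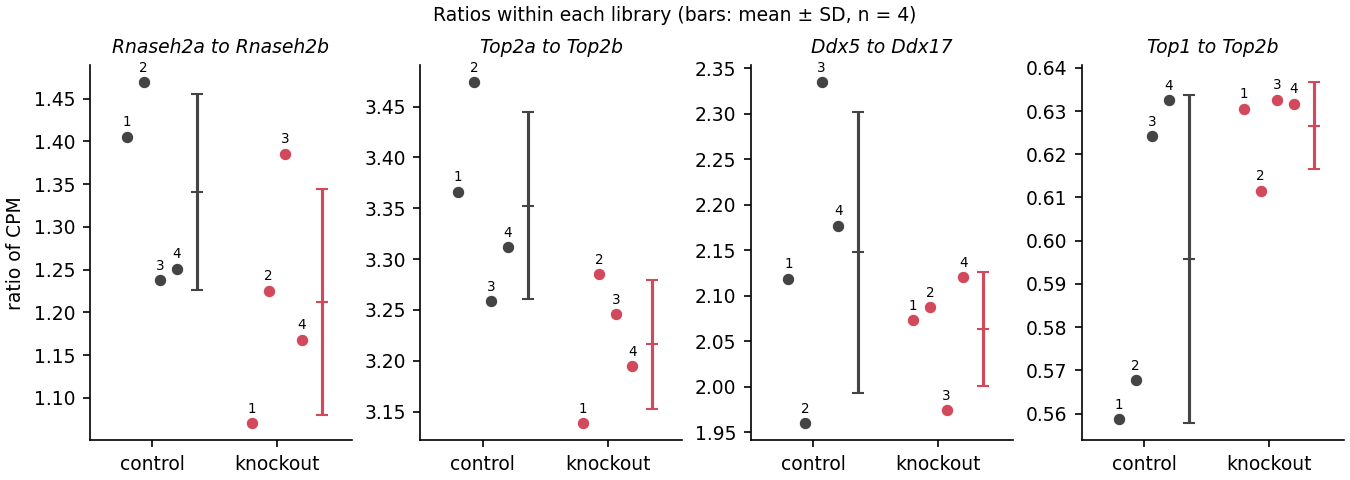
Ratio of the CPM of 2 genes within each library, for 4 pairs, with replicate numbers beside the points and bars for the mean ± SD (n = 4). The axes do not start at 0 and differ between panels. The genotypes overlap in all 4 panels, and the Top2a to Top2b ratio (3.35 ± 0.0920 and 3.22 ± 0.0636) is the nearest to separating them.

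Among all other tested genes, the one whose log2(CPM + 0.5) followed each of the 8 most closely over the 8 libraries was found by Pearson's r, as a description with no test. For Rnaseh2b it was Nars1, the cytosolic asparaginyl-tRNA synthetase (r = 0.987, Spearman's rho = 0.976). For Top1 it was the spliceosome gene Snrpa1 (r = 0.978, rho = 0.810), for Rnaseh2a the splicing regulator Hnrnpl (r = 0.973, rho = 0.905), and for Dhx9 the actin nucleation gene Actr2 (r = 0.966, rho = 0.929). The closest to Rnaseh1 was Tmed9 (r = 0.976) and to Ddx5 the kinase gene Tlk1 (r = 0.95). For Top2b and Aqr the closest genes, Rnls and Skida1, were at means of 0.600 and 0.795 CPM, where a few reads set each value. Each r is the highest among all other tested genes, over 8 libraries whose values share 1 depth scaling each. The genotype difference was not removed before r was taken, and Nars1 had a log2 difference of 0.13 (edgeR adjusted p = 0.189).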

How the data were processed

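Ribosome-depleted total RNA was sequenced in 8 libraries, 4 a genotype by the labels; the study's methods name fewer, from independent mice, and all 8 were used. The authors aligned reads to GRCm39 with STAR 2.7.8a, estimated counts per gene with the Partek E/M algorithm and deposited the filtered, unnormalized estimated counts; 43.0% of values are not whole. Here they were rounded, filtered with filterByExpr (11317 of 11911 genes kept), scaled by TMM and tested for genotype with edgeR 4.0.16 (quasi-likelihood F-test, Benjamini-Hochberg over all tested genes; R 4.3.3). Single genes and ratios were compared by two-sided exact permutation of log2(CPM + 0.5) or log2 ratios. A count of 3 corresponds to 0.188 to 0.225 CPM; counting errors cover counting only. Gene ends are those of the table less 1 base, which matched GENCODE M39 most often. Named genes were the 8, the partners in the ratios, and per list those with an unadjusted P under 0.05, otherwise the 2 largest differences, and the gene closest to each of the 8 by Pearson's r; Rnaseh2c and overlapping genes were added after their values were seen. The genes and lists were chosen with earlier results of these data known. Alternatives were other filters, scalings and tools (DESeq2 1.42.0, limma 3.58.1, sva 3.50.0), a replicate block, each library left out and, chosen after seeing the data, KO1 and KO4 left out. The fitting was tested on simulated data.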

Additional observations from a re-analysis of the deposited data

Results flagged for a closer look

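In a group of 4 libraries, a value was flagged when the lowest or the highest stood far from the nearest of the others for the range of its group (Dixon's criterion, 95% level), which chance does for about 1 in 20 groups; 34 groups were checked. Top2b in control libraries was flagged for WT2, at 332.3 CPM beside 345 to 347 CPM in the other 3. Without WT2 the log2 difference of Top2b was −0.0079. The ratio of Top1 to Top2b in knockout libraries was flagged for KO2, at 0.612 beside 0.630 to 0.633. Neither value changed a call.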

How the results depend on the processing

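None (0) of the 8 genes passed an adjusted p of 0.05 under any of the 17 alternatives, DESeq2 and limma included. The log2 difference of Rnaseh2b was 0.12 to 0.20, above 0 in all 17 and with an unadjusted P under 0.05 in 15; the exceptions were the fit with 1 surrogate variable (0.12) and the one without KO1 and KO4 (0.12). Its adjusted p ranged from 0.174 to 1.00. The number of the 8 with an unadjusted P under 0.05 was 2 with voom and quality weights (Rnaseh2b and Top1), 0 with 1 surrogate variable, 0 without KO1 and KO4, and 1 to 2 with 1 library left out (2 without WT3 or WT4). The log2 difference of Top1 ranged from 0.027 (1 surrogate variable) to 0.11 (without WT4), and was 0.042 without WT2. Small differences changed sign. With 1 surrogate variable Top2b came to −0.0010 and Dhx9 to −0.031. Without KO1 and KO4 Dhx9 came to −0.025, and with voom Top3b came to −0.0012. With 1 library left out, Top2b ranged from −0.0079 to 0.020, Rnaseh2a from −0.012 to 0.057, Aqr from −0.048 to 0.018, Dhx9 from −0.028 to 0.038 and Top3b from −0.0088 to 0.056. The cause was not tested. Among the 57 other genes the count with an unadjusted P under 0.05 was 1 with the replicate block, 0 without KO1 and KO4, and 1 to 3 with 1 library left out. The log2 ratio of Top2a to Top2b ranged from −0.073 to −0.043 with 1 library left out, and without WT3 the exact permutation p was 0.0286. Without KO1 and KO4 the log2 ratio was −0.038 (exact permutation p = 0.267). Sign flips within same-numbered pairs, a replicate block, gave an exact p of 0.125, the smallest p that test allows. The ratio was lower in the knockout library of every such pair.

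Same-numbered libraries did not deviate together (correlations −0.046 to 0.069), which cannot settle whether the numbers pair them. The sources used here do not state it. With the replicate block, Rnaseh2b had a log2 difference of 0.18 (edgeR adjusted p = 0.393, unadjusted P under 0.05).

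Over all tested genes 30 passed an adjusted p of 0.05, against 81 with DESeq2, 95 with voom, 87 with the replicate block, 8 with 1 surrogate variable, 6 to 162 with 1 library left out (6 without KO1, 162 without KO2) and 3 without KO1 and KO4. The unadjusted count of 1052 became 617 with 1 surrogate variable, 697 without KO1 and 450 without KO1 and KO4. Foxp3 passed the adjustment with voom (log2 difference −0.37), the replicate block (−0.32), without WT4 (−0.38) and without KO2 (−0.41), but not with DESeq2 (−0.31), and it came to −0.11 with 1 surrogate variable and −0.15 without KO1 and KO4.

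With 4 libraries a group, differences smaller than the intervals given were not resolved. Counting error was largest for Rnaseh1, the gene of the 8 with the lowest counts.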
